A study of Mus musculus with 12 samples.

Results

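The genes described here are the mouse Wnt ligands with their receptors, secreted inhibitors and intracellular and nuclear partners. They were chosen by protein-coding symbol: the numbered Wnt, Fzd, Sfrp, Dkk and Rspo families, Axin1 and Axin2, Lrp5 and Lrp6, and 13 single genes such as Porcn, Ctnnb1 and Lef1. The annotation holds 58 such symbols. Of these, 50 have a row among the 28948 genes measured, and Dkk1, Fzd6, Fzd10, Rspo4, Wnt3a, Wnt7a, Wnt8a and Wnt16 were not analysed here. RNA was sequenced from 12 libraries of adipocytes made from 3T3-L1, a cell line of Swiss mouse fibroblasts that can be turned into fat cells. The 4 groups held 3 libraries each. They were empty vector control, constituent overexpression of FOXP1, scrambled shRNA control and Foxp1 shRNA, where a shRNA is a hairpin RNA that lowers a chosen transcript. Every group was differentiated with the glucocorticoid dexamethasone at 1 µM, isobutyl methylxanthine, which raises cyclic AMP, at 0.5 mM, insulin at 5 µg/ml and troglitazone, which activates the fat cell regulator Pparg, at 10 µM. Insulin alone, at 5 µg/ml, was kept from day 4, and growth medium was used from day 6. The labels do not give the promoter that drives the construct, the hairpin's sequence, the day of harvest or whether the 3 libraries of a group came from separate cultures, so the p-values measure only the spread between these libraries.

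Wnt proteins are lipid-modified secreted signals that bind a Frizzled receptor together with the co-receptor Lrp5 or Lrp6. In the canonical branch this stops a complex built on Axin from destroying beta-catenin, the product of Ctnnb1, which then works with the DNA-binding factors Lef1, Tcf7, Tcf7l1 and Tcf7l2. Canonical Wnt signalling is known to hold fat cell precursors in an undifferentiated state, while ligands such as Wnt5a can also act through planar polarity and calcium branches that bypass beta-catenin. Foxp1 is a forkhead transcription factor.

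Between 35252020 and 38450004 reads per library were assigned to genes, and levels are given as reads scaled to exon length and to the library's assigned reads (RPKM). At this depth 1 read in a 1 kb transcript was worth 0.0260 to 0.0284 RPKM. Foxp1 itself stood at 1.80 ± 0.0349 RPKM with empty vector, 6.56 ± 0.710 with overexpression, 2.18 ± 0.0624 with the scrambled hairpin and 1.11 ± 0.0335 with knockdown (SD, n = 3). The summed level of 10 fat cell markers ranged over 9507 to 9722 RPKM with empty vector, 3761 to 4051 with overexpression, 6932 to 7174 with the scrambled hairpin and 9573 to 10263 with knockdown. All 10 fell with overexpression, and 6 rose and 3 fell with knockdown. Adipoq, which encodes the fat cell hormone adiponectin, differed by a log2 fold change of -2.15 in the first comparison and 0.64 in the second. Summed levels of 11 preadipocyte markers ranged over 117 to 130 RPKM with empty vector, 131 to 137 with overexpression, 150 to 169 with the scrambled hairpin and 132 to 148 with knockdown. Of the 9 tested, 4 rose and 2 fell with overexpression and 1 rose and 3 fell with knockdown. Among all genes tested, 31% rose and 20.3% fell with overexpression, and 18.7% rose and 31% fell with knockdown. Muscle markers summed to 24.2 to 25.1 RPKM with empty vector, 44.4 to 50.4 with overexpression, 10.2 to 11.8 with the scrambled hairpin and 9.41 to 10.4 with knockdown. Bone and cartilage markers summed to 2.92 to 3.20, 2.30 to 2.53, 8.34 to 9.09 and 6.57 to 7.20 RPKM in that order. Only 2 markers of each of these 2 lists were tested, and they split with overexpression. The muscle marker Acta1 rose by a log2 fold change of 1.54 while Des fell by 0.42. The bone marker Runx2 rose by 0.14 while Alpl fell by 0.40. Macrophage markers summed to 4.64 to 7.60 RPKM over the 12 libraries. Endothelial markers summed to 0.429 to 0.594 RPKM with overexpression and 0.235 to 0.333 in the other groups. Of the muscle, bone, macrophage and endothelial markers, 4 of 6, 3 of 9, 4 of 8 and 5 of 7 of these markers stayed under 0.1 RPKM in all 12 libraries. The part of these markers in the Wnt gene results was not tested, and in bulk RNA fewer cells of a type and less RNA per cell cannot be told apart. The third overexpression library stood apart from the other two of its group. Its mitochondrial share of reads was 13.1%, against 9.99% and 9.65%.

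A gene was tested if it reached 1 RPKM in at least 3 libraries, which 11245 genes and 20 of the 50 Wnt pathway genes did. The genes tested were 8 of 10 receptors, 2 of 15 ligands, both ligand secretion genes, 2 of 9 secreted antagonists, 2 of 5 intracellular components, 1 of 2 receptor ubiquitin ligases, 3 of 4 TCF/LEF factors and none of 3 R-spondins. Sfrp5 passed in 4 libraries, Sfrp2 in 6, Wnt4 in 9 and Znrf3 in 10, so these passed mainly through the groups where they were high. Differences are limma log2 fold changes on log2(RPKM + 1), a scale that understates changes of low genes, and a gene is called changed at a Benjamini-Hochberg adjusted p under 0.05 over all genes tested.

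With overexpression, 12 of the 20 tested Wnt pathway genes changed against empty vector, 8 of them higher and 4 lower, where 51.4% of all tested genes changed, 31% higher and 20.3% lower. With knockdown, 12 changed against the scrambled hairpin, 5 higher and 7 lower, against 49.7% of all tested genes, 18.7% higher and 31% lower. The shares changed were near those of all genes, and the median absolute log2 fold change was 0.22 against 0.15 over all genes with overexpression and 0.19 against 0.15 with knockdown. Wnt4, Fzd4, Lrp5 and Axin1 rose with overexpression and fell with knockdown, and Fzd5 did the opposite. These 5 of 20 compare with 18.1% of all tested genes called in opposite directions. Ctnnb1 and Sfrp5 rose in both comparisons, which 10.5% of all tested genes did in either shared direction. The overexpression response differed from the knockdown response in 14 of 20 Wnt pathway genes, against 54.9% of all tested genes. Of the 14, 9 were more positive with overexpression, and the split by direction over all genes is not given here. The median response difference was 0.17 over the 20 genes and 0.08 over all genes, so all genes leaned the same way. Of these 14, Sfrp5 and Lrp6 rested on the settings. The Sfrp5 response difference was 0.34 and fell to 0.0907 under limma-voom on recovered reads (adjusted p = 0.836), and it was lost in other settings and without several single libraries. That of Lrp6 was lost under TPM (adjusted p = 0.0669), without a filter (0.0824) and when any of 8 single libraries was left out (up to 0.0805).

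The split of directions depended on how libraries were scaled. Under TPM (each library's values rescaled to a common sum) 2 Wnt pathway genes rose and 7 fell with knockdown, and under median-ratio scaling 8 rose and 6 fell. Without a filter on low values, 3 rose and 6 fell. The response difference split into 8 and 7 under quantile normalization. Over all genes the overexpression split of 3490 higher and 2285 lower became 2437 and 2580 under TPM, and the knockdown split of 2100 and 3487 became 2783 and 2791 under median-ratio scaling. Without the third overexpression library, 14 Wnt pathway genes changed with overexpression and 13 with knockdown.

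**Figure D1:**
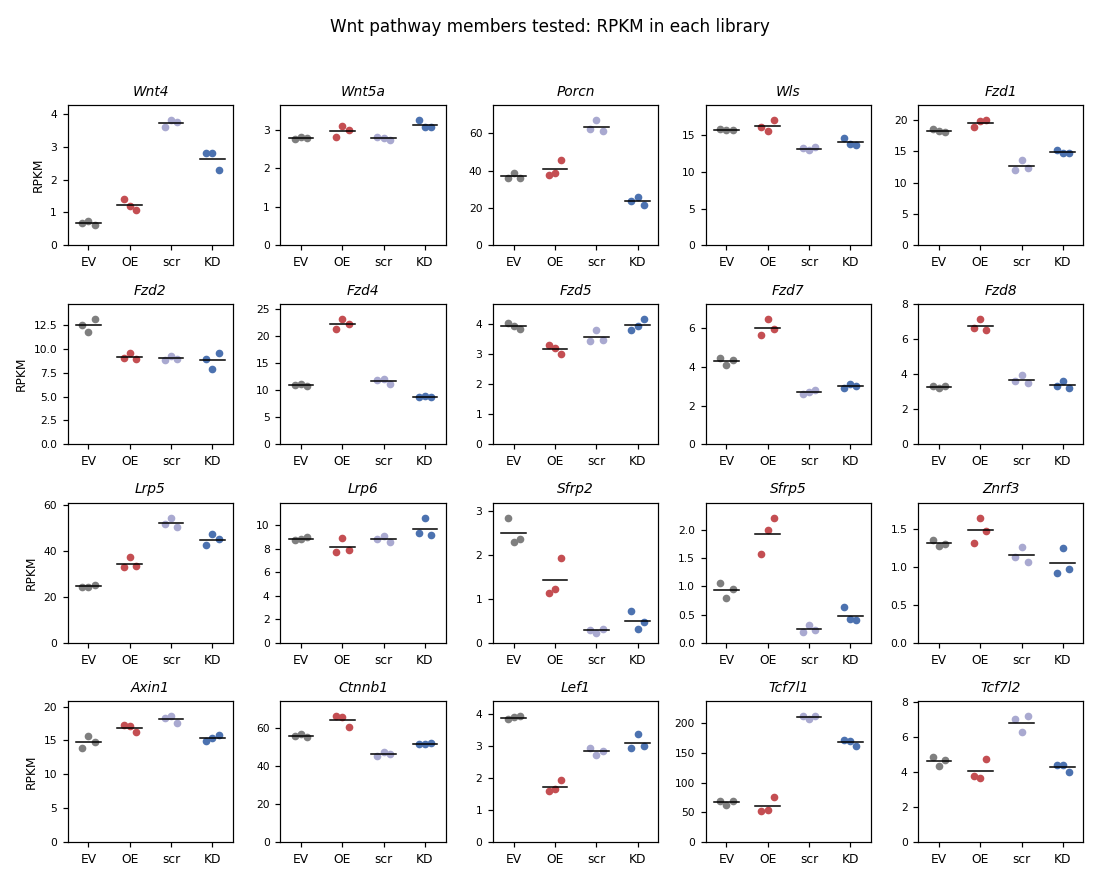
RPKM of the 20 tested Wnt pathway genes in each of the 12 libraries, with points for single libraries and bars for group means. Each gene has its own panel and its own linear axis, so heights cannot be compared between genes. Fzd4 and Fzd8 sit higher in the overexpression libraries than in all others, Porcn is lowest in the knockdown libraries, and Tcf7l1 reaches 162 to 212 RPKM in the 6 hairpin libraries.

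Of the 2 ligands tested, Wnt4 changed in both comparisons. It signals in kidney and reproductive tract development and is a known Wnt of mesenchymal cells. The Wnt4 level was 0.691, 0.738 and 0.629 RPKM in the empty vector libraries, and 1.40, 1.19 and 1.08 with overexpression. It was 3.59, 3.81 and 3.73 with the scrambled hairpin, and 2.80, 2.80 and 2.29 with knockdown. The 4 groups did not overlap, and both hairpin groups stood above both vector groups. Wnt4 rose with overexpression by a log2 fold change of 0.40 ± 0.0663 (SE, limma adjusted p = 0.000307) and fell with knockdown by 0.38 (adjusted p = 0.000543). The ratio of group means was 1.78 with overexpression and 0.709 with knockdown. The opposite responses differed by 0.78 (adjusted p = 2.08e-05).

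Wnt5a, the main ligand of the branches that bypass beta-catenin, varied less. Its level was 2.76, 2.81 and 2.79 RPKM with empty vector, and 2.82, 3.11 and 3.00 with overexpression. It was 2.81, 2.78 and 2.74 with the scrambled hairpin and 3.26, 3.06 and 3.06 with knockdown. The knockdown libraries lay above the scrambled ones, a log2 fold change of 0.13 (limma adjusted p = 0.0167). That call was lost without the third scrambled library (adjusted p = 0.0507), without the first knockdown library (0.0687) and under TPM (0.083). With overexpression the difference was 0.07 (adjusted p = 0.156).

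The remaining 13 ligands stayed under the filter. Wnt6 was the highest of them, at 0.490 RPKM with empty vector, 0.851 with overexpression, 0.431 with the scrambled hairpin and 0.364 with knockdown. Wnt9a stood at 0.411, 0.318, 0.265 and 0.194 RPKM in that order, and Wnt5b at 0.0504, 0.140, 0.0957 and 0.110. Wnt11 reached 0.0875 RPKM with overexpression and 0.0106 to 0.0177 in the other groups. Wnt10b, a known blocker of adipogenesis, reached no more than 0.0506 RPKM in any group. The 8 ligands Wnt1, Wnt2, Wnt2b, Wnt3, Wnt7b, Wnt8b, Wnt9b and Wnt10a stayed under 0.05 RPKM in every group. They are among 20 genes near 0, whose highest group mean was 0.0395 RPKM. Wnt6 lies 6193 bases from Wnt10a on chromosome 1, and Wnt10b lies 11706 bases from Wnt1 on chromosome 15, and in each pair only the first reached 0.05 RPKM in a group.

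Wnt5a and Wnt4 made up most of the ligand transcripts in every group, in changing proportions. All 15 ligands together reached 4.52 ± 0.0831 RPKM with empty vector, 5.72 ± 0.310 with overexpression, 7.36 ± 0.150 with the scrambled hairpin and 6.51 ± 0.369 with knockdown (SD, n = 3). Wnt5a held 61.6% of that sum with empty vector and 52.0% with overexpression, then 37.7% with the scrambled hairpin and 48.0% with knockdown. Wnt4 held 15.2%, 21.4%, 50.4% and 40.4% in the same order. Wnt6 took 10.8% with empty vector and 14.9% with overexpression. These shares are descriptions of the group means.

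**Figure D2:**
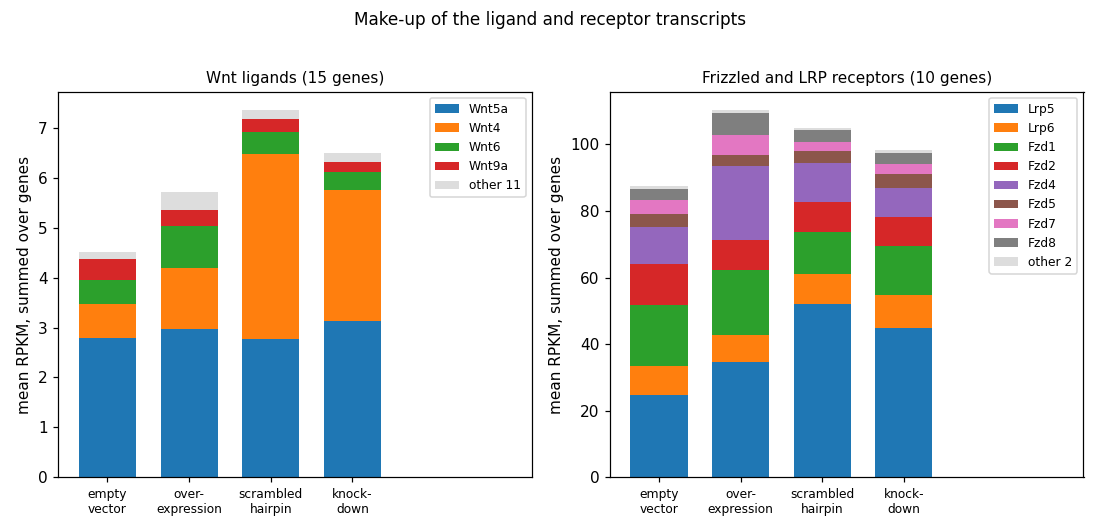
Make-up of the summed ligand RPKM and of the summed receptor RPKM in the 4 groups, as stacked bars of group mean RPKM starting at 0, with the lower genes pooled. Wnt4 grows from 15.2% of ligand transcripts with empty vector to 50.4% with the scrambled hairpin, and Fzd4 from 12.5% to 20.2% of receptor transcripts with overexpression.

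Wnt proteins leave the cell only after Porcn, an enzyme of the endoplasmic reticulum, attaches a fatty acid and Wls carries them to the surface. Porcn lies on chromosome X (mm10 chrX:8193848-8206525) and had the largest knockdown response of the 20 genes tested. Its level was 62.2, 67.2 and 61.2 RPKM with the scrambled hairpin and 23.7, 26.0 and 21.8 with knockdown. It was 36.2, 38.8 and 36.2 with empty vector and 37.8, 38.7 and 45.6 with overexpression. The knockdown libraries were the lowest of the 12 and the scrambled ones the highest. Porcn fell with knockdown by 1.38 on the log2 scale (SE 0.0747, limma adjusted p = 8.99e-08), to 0.375 of the scrambled mean. With overexpression the difference was 0.13 (95% interval -0.04 to 0.29, adjusted p = 0.176) and was not called. The response difference was 1.51 (adjusted p = 1.76e-07). Wls stood at 15.8 ± 0.0847, 16.3 ± 0.784, 13.2 ± 0.180 and 14.1 ± 0.561 RPKM with empty vector, overexpression, scrambled hairpin and knockdown. Its log2 fold change was 0.04 with overexpression (adjusted p = 0.411) and 0.09 with knockdown (adjusted p = 0.091).

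On the log2(RPKM + 1) scale the largest rises with overexpression among the 20 tested genes were in receptors. Fzd4, the receptor of Wnt proteins and of norrin, rose with overexpression to 2.04 times the empty vector mean. The Fzd4 level was 10.9, 11.2 and 10.7 RPKM with empty vector and 21.3, 23.2 and 22.3 with overexpression. It was 11.9, 12.2 and 11.2 with the scrambled hairpin and 8.70, 8.85 and 8.67 with knockdown. The overexpression libraries were the highest of the 12 and the knockdown libraries the lowest, without overlap. The log2 fold change was 0.96 ± 0.0405 (SE, limma adjusted p = 1.51e-09) with overexpression and -0.39 with knockdown (adjusted p = 1.22e-05). The responses differed by 1.35 (adjusted p = 2.39e-09).

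Fzd8 also rose with overexpression, to 2.06 times the empty vector mean. It was 3.35, 3.20 and 3.31 RPKM with empty vector, 6.61, 7.17 and 6.50 with overexpression, 3.62, 3.98 and 3.47 with the scrambled hairpin and 3.31, 3.63 and 3.22 with knockdown. Its log2 fold change was 0.86 with overexpression (limma adjusted p = 4.04e-08) and -0.10 with knockdown (adjusted p = 0.144), and the hairpin groups overlapped. Fzd7 followed the same direction at a smaller size. It was 4.48, 4.09 and 4.38 RPKM with empty vector and 5.67, 6.49 and 5.94 with overexpression, a log2 fold change of 0.40 (adjusted p = 1.95e-05). With the scrambled hairpin it was 2.62, 2.69 and 2.78 and with knockdown 2.91, 3.10 and 3.00, a log2 fold change of 0.11 (adjusted p = 0.067). Although those 2 groups did not overlap, the knockdown difference of Fzd7 passed only in some settings, such as median-ratio scaling (adjusted p = 0.0194) and leaving out the second overexpression library (0.0397).

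Fzd2 and Fzd5 fell with overexpression. Fzd2 was 12.5, 11.8 and 13.2 RPKM with empty vector and 9.07, 9.56 and 8.97 with overexpression, without overlap, a log2 fold change of -0.41 (limma adjusted p = 0.00011). With the scrambled hairpin Fzd2 was 8.85, 9.30 and 8.97 and with knockdown 8.99, 7.93 and 9.65, overlapping groups that differed by -0.03 (adjusted p = 0.7). Fzd5 was 4.03, 3.94 and 3.85 RPKM with empty vector and 3.32, 3.20 and 3.02 with overexpression, a log2 fold change of -0.24 (adjusted p = 0.00079). Fzd5 was 3.44, 3.80 and 3.47 with the scrambled hairpin and 3.80, 3.94 and 4.18 with knockdown, a log2 fold change of 0.12 (adjusted p = 0.0411). The knockdown rise of Fzd5 was lost when any of 7 single libraries was left out, all 3 empty vector libraries among them, with adjusted p between 0.0528 and 0.153, and under TPM (0.181).

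Fzd1 was the highest Frizzled transcript with empty vector, at 18.5, 18.1 and 18.0 RPKM, and was 18.8, 19.7 and 19.98 with overexpression. It was 12.1, 13.6 and 12.3 with the scrambled hairpin and 15.1, 14.6 and 14.7 with knockdown. Fzd1 rose with knockdown by 0.21 (limma adjusted p = 0.00151), and its overexpression difference of 0.09 missed the threshold (adjusted p = 0.09), passing without the second scrambled library (0.0419). Fzd3 stayed under the filter at 0.839, 0.669, 0.623 and 0.748 RPKM with empty vector, overexpression, scrambled hairpin and knockdown. Fzd9 reached at most 0.0927 RPKM, with knockdown.

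The co-receptors differed from each other. Lrp5, also known for setting bone mass, was 24.3, 24.2 and 25.0 RPKM with empty vector and 33.0, 37.1 and 33.3 with overexpression. It was 51.6, 54.5 and 50.3 with the scrambled hairpin and 42.4, 47.1 and 45.2 with knockdown. No groups overlapped, and Lrp5 rose by 0.47 with overexpression (limma adjusted p = 9.98e-06) and fell by 0.21 with knockdown (adjusted p = 0.00535). Lrp6 stood at 8.83 ± 0.135, 8.16 ± 0.633, 8.85 ± 0.256 and 9.71 ± 0.813 RPKM in the order empty vector, overexpression, scrambled hairpin, knockdown. Its log2 fold change was -0.10 with overexpression (95% interval -0.23 to 0.02, adjusted p = 0.153) and 0.12 with knockdown (-0.01 to 0.24, adjusted p = 0.111). Both Lrp6 differences passed under median-ratio scaling (adjusted p = 0.0491 and 0.0254), and the overexpression one without the second overexpression library (0.0348). Of the summed receptor RPKM, Lrp5 held 28.1% with empty vector and 49.6% with the scrambled hairpin, and Fzd4 held 12.5% with empty vector, 20.2% with overexpression and 8.90% with knockdown.

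**Figure D3:**
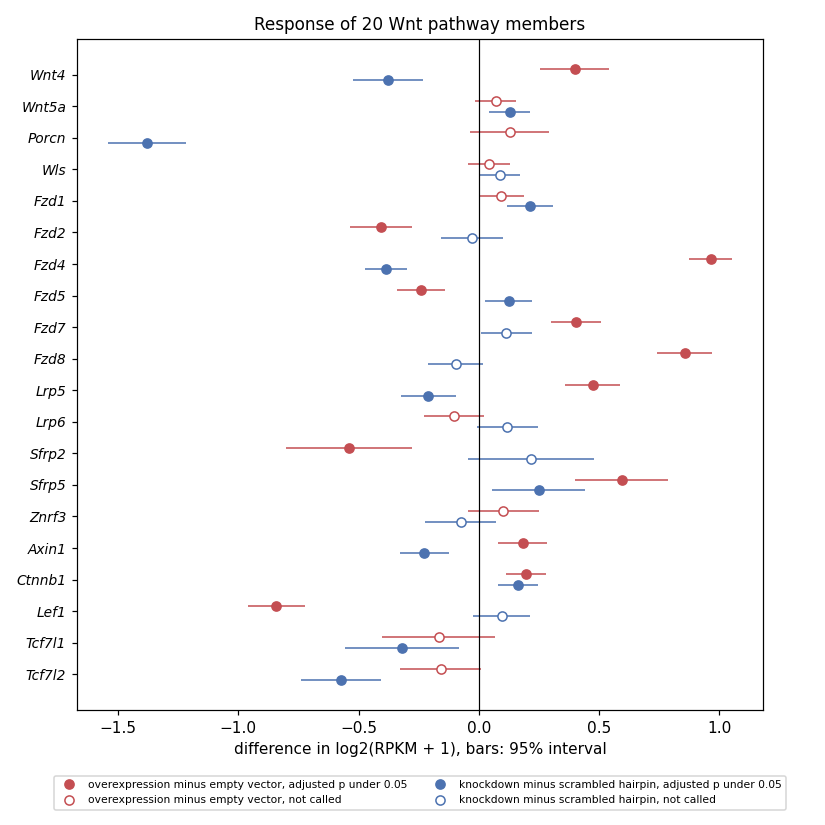
Log2 fold changes with overexpression and with knockdown (horizontal) for each of the 20 tested Wnt pathway genes, with bars of the 95% interval. Porcn stands alone at -1.38 with knockdown. With overexpression Fzd4 and Fzd8 lie furthest right, and Lef1 lies furthest left at -0.84.

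RefSeq promoter entries (GRCm38.p6) were matched for 32 of the 50 genes and 12 of the 20 tested. Of the 5 genes called in opposite directions, Fzd4, Fzd5 and Wnt4 have one. The stretch upstream of the start is shown for these 3 because their transcripts moved in opposite directions with Foxp1 raised and lowered, at chr7:89404116-89404354 on the plus strand, chr1:64737752-64738000 on the minus strand and chr4:137277385-137277488 on the plus strand. Each is written 5′ to 3′ along its gene, with the GC box letters GGGCGG, on either strand, in capitals.
Fzd4: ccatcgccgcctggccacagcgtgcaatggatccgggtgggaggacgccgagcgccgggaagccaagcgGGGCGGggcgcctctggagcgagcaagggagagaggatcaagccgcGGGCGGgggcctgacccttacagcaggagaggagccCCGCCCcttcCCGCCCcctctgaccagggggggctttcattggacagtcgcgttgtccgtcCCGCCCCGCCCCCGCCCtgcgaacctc
Fzd5: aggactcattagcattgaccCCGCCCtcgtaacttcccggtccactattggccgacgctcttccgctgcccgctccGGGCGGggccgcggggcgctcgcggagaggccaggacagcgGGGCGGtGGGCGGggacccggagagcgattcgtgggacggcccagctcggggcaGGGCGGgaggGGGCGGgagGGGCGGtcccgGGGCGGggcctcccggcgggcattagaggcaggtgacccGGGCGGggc
Wnt4: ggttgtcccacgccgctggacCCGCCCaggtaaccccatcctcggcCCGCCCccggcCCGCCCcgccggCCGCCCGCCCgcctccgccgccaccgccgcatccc
The 3 stretches are rich in G and C, at 72.8%, 76.3% and 83.7%, against a median of 52.7% over all 32851 RefSeq promoter windows of the mouse. They hold 7, 9 and 5 GC boxes, overlapping ones counted separately, where 35.7% of all windows hold at least 1. The values over all windows include bases past the start. The 3 stretches are upstream only, at 239, 249 and 104 bases, so these comparisons are of unlike regions. None of the 3 holds the TCF/LEF letters CTTTGAT or CTTTGTT or the forkhead letters GTAAACA or TGTTTAT on either strand. In all windows either TCF/LEF run was found in 9.33% and either forkhead run in 7.97%. Among the 12 tested genes with an entry, Fzd7 and Tcf7l2 hold a TCF/LEF run and Lef1 and Tcf7l2 a forkhead run, shown here in capitals with 10 bases on each side.
Fzd7, TCF/LEF run on the opposite strand, chr1:59482007-59482033: ccacagagaaAACAAAGcgcgctattg
Lef1, forkhead run at a downstream start, chr3:131156298-131156324: caagaaaaggTGTTTATctctattgaa
Tcf7l2, forkhead run, chr19:55741731-55741757: ccaccccggcTGTTTATttatgcacac
Tcf7l2, TCF/LEF run at a downstream start, chr19:55895297-55895323: aaatatcaggCTTTGTTcttttgattg
These matches describe letters only, and binding was not measured.

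Secreted antagonists were low, and differed most between the vector and hairpin groups. Sfrp5, an inhibitor of Wnt5a known from fat tissue, was 1.05, 0.794 and 0.956 RPKM with empty vector and 1.57, 1.99 and 2.22 with overexpression. It was 0.193, 0.317 and 0.236 with the scrambled hairpin and 0.632, 0.418 and 0.406 with knockdown. Neither pair of groups overlapped, and Sfrp5 rose by 0.59 with overexpression (limma adjusted p = 0.000128) and by 0.25 with knockdown (adjusted p = 0.0343), ratios of means of 2.06 and 1.95. The knockdown rise was lost without the first scrambled library (adjusted p = 0.109), the third scrambled library (0.0774) or the first knockdown library (0.14), and under quantile normalization (0.119).

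Sfrp2, another secreted Frizzled-related protein, was 2.85, 2.31 and 2.37 RPKM with empty vector and 1.15, 1.23 and 1.93 with overexpression, groups that did not overlap. It fell by 0.54 (limma adjusted p = 0.0025), to 0.571 of the empty vector mean, so the 2 tested antagonists moved in opposite directions with overexpression. With the scrambled hairpin Sfrp2 was 0.304, 0.231 and 0.319 RPKM and with knockdown 0.718, 0.307 and 0.482, overlapping groups with a log2 fold change of 0.22 (adjusted p = 0.153). All 9 antagonists together summed to 4.02 ± 0.411 RPKM with empty vector, 4.21 ± 0.732 with overexpression, 0.634 ± 0.0361 with the scrambled hairpin and 1.36 ± 0.406 with knockdown.

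Genes under the filter were also tested as whole reads recovered from the deposited values, using limma-voom and at least 10 reads in 3 libraries, a choice made after seeing the data. This let 8 of the 30 in, and 6 changed with overexpression, 4 with knockdown and 5 between the controls, against 47.4%, 44.4% and 67.3% of 15070 genes. Dkk3, a divergent member of the Dickkopf family of antagonists, had 188 reads over the empty vector libraries, 295 with overexpression, 33 with the scrambled hairpin and 125 with knockdown. It rose in both comparisons, by 0.66 with overexpression (adjusted p = 0.00464) and 1.95 with knockdown (adjusted p = 0.000108). Rspo2, an R-spondin that strengthens Wnt signals, had 74, 22, 18 and 93 reads in the same order. It fell by 1.70 with overexpression (adjusted p = 0.000529) and rose by 2.28 with knockdown (adjusted p = 4.66e-05). Fzd3 fell by 0.33 with overexpression (adjusted p = 0.000753) and rose by 0.26 with knockdown (adjusted p = 0.00559). Wnt6, Wnt5b and Wnt11 rose with overexpression by 0.79, 1.42 and 2.73 (adjusted p = 0.00148, 0.0034 and 0.00387), the last from 8 to 40 reads. Wnt11 had 10 reads or more only in the 3 overexpression libraries, so it entered this test through the group where it was high. In the order empty vector, overexpression, scrambled hairpin and knockdown, Rspo2 reached 10 reads in 3, 1, 0 and 3 libraries. Wnt5b did so in 0, 3, 2 and 2, and Tcf7 in 1, 1, 3 and 3. Rspo2, Wnt5b and Tcf7 thus entered mainly through the groups where they were higher. Tcf7, with 27, 20, 133 and 69 reads, fell by 0.89 with knockdown (adjusted p = 0.00652). Each of these 10 calls was kept when any 1 of the 12 libraries was left out, with the genes tested held as chosen from all 12. Without an overexpression library Wnt11 would not have passed the read filter, so these repeats do not test its entry. The log2 fold change of Wnt11 fell to 1.66 without the first empty vector library. Wnt9a was called with overexpression in 1 of those 12 repeats, without the second empty vector library (adjusted p = 0.0409), and not with all libraries (0.217).

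**Figure D4:**
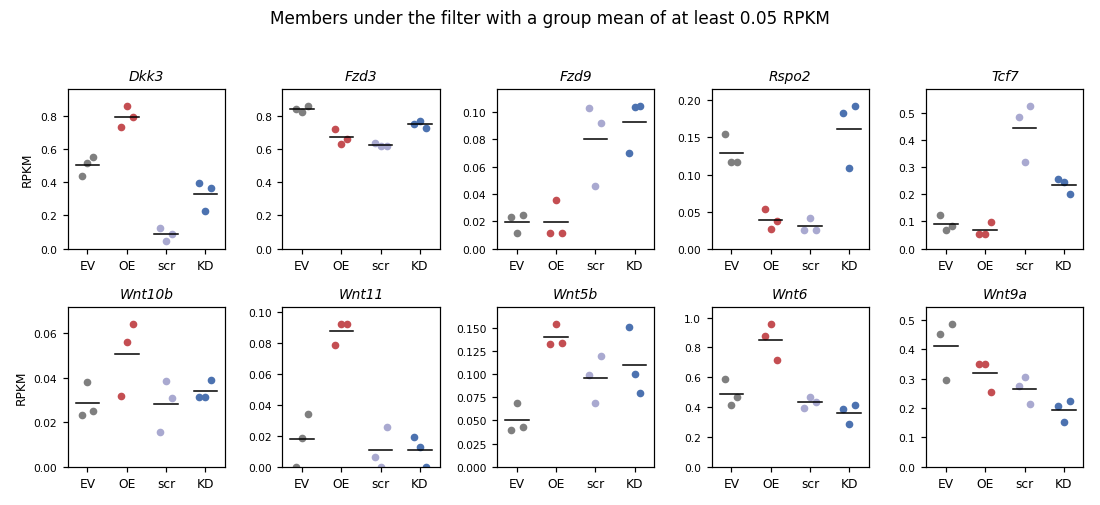
RPKM in each of the 12 libraries for the 10 Wnt pathway genes under the filter with a group mean of at least 0.05 RPKM, with points for libraries and bars for group means. Rspo2 is higher with empty vector and knockdown than in the other groups, and Dkk3 runs from 0.0860 RPKM with the scrambled hairpin to 0.795 with overexpression.

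The other antagonists and R-spondins were near 0. Over all 12 libraries Wif1 had 3 reads, Dkk4 3, Sfrp1 4, Rspo1 8, Sfrp4 9, Rspo3 24 and Dkk2 29. The negative feedback genes that canonical signalling often switches on were low as well. Axin2, a standard readout of beta-catenin activity, had 13 reads in all, Notum 14, Nkd2 3, Nkd1 2 and the receptor ubiquitin ligase Rnf43 64. Axin2 had 4, 2, 4 and 3 reads with empty vector, overexpression, scrambled hairpin and knockdown. With so few reads, falls and small rises in Axin2, Notum, Nkd1 and Nkd2 were not detectable at this depth. Znrf3, the partner of Rnf43 in removing Frizzled receptors from the surface, stood at 1.31 ± 0.0403, 1.48 ± 0.168, 1.15 ± 0.0992 and 1.05 ± 0.174 RPKM with empty vector, overexpression, scrambled hairpin and knockdown. Its differences were 0.10 with overexpression (limma adjusted p = 0.231) and -0.08 with knockdown (adjusted p = 0.37).

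Axin1 and Ctnnb1, in contrast to Axin2, were well expressed. Axin1, the scaffold of the complex that destroys beta-catenin, was 13.8, 15.7 and 14.8 RPKM with empty vector and 17.3, 17.1 and 16.2 with overexpression. It was 18.3, 18.6 and 17.5 with the scrambled hairpin and 14.9, 15.3 and 15.9 with knockdown. The compared groups did not overlap, with a log2 fold change of 0.18 with overexpression (limma adjusted p = 0.00642) and -0.23 with knockdown (adjusted p = 0.00169). The overexpression rise was not called under TPM (adjusted p = 0.0899). Ctnnb1, which encodes beta-catenin, was 55.7, 56.7 and 55.3 RPKM with empty vector, 66.0, 65.8 and 60.6 with overexpression, 45.1, 47.4 and 46.0 with the scrambled hairpin and 51.7, 51.7 and 51.8 with knockdown. It rose in both comparisons without overlap, by 0.20 with overexpression (adjusted p = 0.00095) and 0.16 with knockdown (adjusted p = 0.00371), the latter not called under TPM (0.0595). The difference between these responses was 0.03 (95% interval -0.08 to 0.15).

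The TCF/LEF factors, which bring beta-catenin to DNA, responded separately. Lef1 was 3.84, 3.92 and 3.93 RPKM with empty vector and 1.59, 1.67 and 1.94 with overexpression, without overlap. It fell by 0.84 (limma adjusted p = 6.45e-08), to 0.445 of the empty vector mean. In the hairpin groups Lef1 was 2.95, 2.73 and 2.85 RPKM with the scrambled hairpin and 2.96, 3.37 and 3.00 with knockdown, a log2 fold change of 0.09 (adjusted p = 0.168). Lef1 therefore had the largest fall of the 20 tested genes with overexpression and no called change with knockdown, and the responses differed by -0.94 (adjusted p = 6.77e-07).

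Tcf7l2 and Tcf7l1 fell with knockdown. Tcf7l2, the TCF factor linked by human genetics to type 2 diabetes, was 7.04, 6.28 and 7.19 RPKM with the scrambled hairpin and 4.38, 4.42 and 3.98 with knockdown, a fall of 0.57 (limma adjusted p = 7.46e-05). It was 4.84, 4.34 and 4.68 with empty vector and 3.77, 3.64 and 4.75 with overexpression, overlapping groups with a difference of -0.16 (adjusted p = 0.103). Tcf7l1, mostly a repressor in the absence of beta-catenin, had the highest mean of the 20 genes over all 12 libraries. It was 212, 207 and 212 RPKM with the scrambled hairpin and 173, 170 and 162 with knockdown, a fall of 0.32 (adjusted p = 0.0272). That call was lost without the third knockdown library (0.0835), the second knockdown library (0.0523) or any single scrambled library (0.0549 to 0.0671). It was also lost under median-ratio scaling (0.0896), quantile normalization (0.053) and no filter (0.0936). With empty vector Tcf7l1 was 69.5, 61.9 and 68.5 RPKM and with overexpression 51.6, 53.3 and 75.2, where the third overexpression library lay above all 3 controls. The overexpression difference of -0.17 was not called (adjusted p = 0.218). Without that library both factors fell with overexpression, Tcf7l1 by 0.34 (adjusted p = 0.000115) and Tcf7l2 by 0.26 (adjusted p = 0.00373). Tcf7 was low, at 0.0919, 0.0690, 0.444 and 0.235 RPKM with empty vector, overexpression, scrambled hairpin and knockdown.

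The controls themselves differed in 16 of 20 Wnt pathway genes, 7 higher and 9 lower with the scrambled hairpin than with empty vector. Of all tested genes 71.8% differed, 44.8% higher and 27% lower, and under median-ratio scaling that split was 3938 higher and 3990 lower. Axin1, Fzd8, Lrp5, Porcn, Tcf7l1, Tcf7l2 and Wnt4 were higher, and Ctnnb1, Fzd1, Fzd2, Fzd5, Fzd7, Lef1, Sfrp2, Sfrp5 and Wls lower. Tcf7l1 was 3.15 times, Wnt4 5.41 times, Lrp5 2.12 times and Porcn 1.71 times as high with the scrambled hairpin. The log2 fold changes were 1.64, 1.48, 1.06 and 0.76 (limma adjusted p = 4.1e-08, 1.4e-09, 3.44e-09 and 1.52e-06). Sfrp2 was at 0.113 and Sfrp5 at 0.266 of the empty vector mean, log2 fold changes of -1.45 and -0.63 (adjusted p = 3.22e-07 and 3.72e-05). Fzd7 and Fzd1 stood at 0.625 and 0.694 of it. In the test of recovered reads the 5 genes called were Dkk3, Fzd3 and Wnt9a, with log2 fold changes of -2.59, -0.43 and -0.60, Tcf7 with 2.21, and Rspo2, lower at 18 against 74 reads. The Wnt9a call was lost without the first or the third empty vector library (adjusted p = 0.0922 and 0.11) or the third scrambled library (0.121). In 12 of the 20 tested genes, Tcf7l1, Wnt4, Lrp5 and Sfrp2 among them, the distance between controls on the log2 scale was larger than both responses. Znrf3, called in no comparison, is also counted there. The same share was not computed over all genes. Over all tested genes the median absolute log2 fold change was 0.26 between the controls, against 0.15 with overexpression and 0.15 with knockdown. The knockdown comparison and the comparison of controls share the scrambled libraries, so a high or low scrambled value enters both with opposite sign. The mitochondrial share of reads was 9.04% ± 0.387 with empty vector and 10.9% ± 1.91 with overexpression, against 5.37% ± 0.497 with the scrambled hairpin and 6.34% ± 0.433 with knockdown (SD, n = 3), and its part in these differences was not tested. The labels name no other difference between the vector and hairpin sets, and construct type and set cannot be told apart.

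Other genes of the pathway were followed through lists. For comparison, 31% of all tested genes rose and 20.3% fell with overexpression, and 18.7% rose and 31% fell with knockdown. Of 23 intracellular transducers tested, 5 rose and 3 fell with overexpression and 1 rose and 12 fell with knockdown, with median log2 fold changes of 0.04 and -0.12 against 0.04 and -0.04 over all genes. Under median-ratio scaling 3 rose and 5 fell with overexpression, and 2 rose and 6 fell with knockdown. Tnks, a tankyrase that marks Axin for destruction, rose by 0.41 with overexpression, and Tnks2 fell by 0.29 with knockdown (limma adjusted p = 3.92e-05 and 0.000184). Amer1 and Csnk1e fell with overexpression by 0.50 and 0.30, and the kinase Csnk1a1 and the ubiquitin ligase subunit Fbxw11 fell with knockdown by 0.16 and 0.20. Of 20 nuclear partners, 4 rose and 5 fell with overexpression, and 3 rose and 5 fell with knockdown, where the split became 6 and 4 under median-ratio scaling. Tle3, a co-repressor that TCF factors recruit and that is known in fat cells, rose by 0.29 with overexpression and fell by 0.56 with knockdown (adjusted p = 0.000173 and 1.94e-06), from 13.5 to 8.87 RPKM in the latter. Between the controls Tle3 was higher with the scrambled hairpin by 1.40 (adjusted p = 8.8e-11), more than either response. Csnk1a1 and Fbxw11 were also higher there, by 0.63 and 0.45. Tle1 fell with overexpression by 0.38 and Tle4 rose with knockdown by 0.36.

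Of 23 genes of the planar polarity and calcium branches, 12 rose and 1 fell with overexpression, and 3 rose and 12 fell with knockdown. Over all genes 31% rose and 20.3% fell with overexpression, and 18.7% rose and 31% fell with knockdown. The list's medians were 0.13 and -0.13, against 0.04 and -0.04 over all genes. Scaling moved these counts, to 6 and 1 with overexpression under TPM, and to 9 and 3 with overexpression and 4 and 8 with knockdown under median-ratio scaling. Prickle3, a planar polarity protein, rose by 0.62 with overexpression and fell by 0.62 with knockdown (limma adjusted p = 2.72e-07 and 1.1e-06). Prickle1 and the formin-related Daam2 rose with overexpression by 0.82 and 0.74, and Mapk9 and Plcb4 fell with knockdown by 0.32 and 0.40. Between the controls, which the knockdown comparison shares in part, 14 of the 23 were higher with the scrambled hairpin and 1 lower. Of all tested genes 44.8% were higher and 27% lower there. These counts of 14 and 1 became 10 and 5 under median-ratio scaling and 15 and 1 under TPM. Mapk9 was higher with the scrambled hairpin by 0.51, more than its fall with knockdown. Of 14 other receptors and surface proteins, 5 rose and 4 fell with overexpression and 1 rose and 7 fell with knockdown, or 2 and 4 under median-ratio scaling. Gpc4, a glypican that binds Wnt proteins, rose by 0.55 and fell by 0.25 in turn (adjusted p = 1.04e-07 and 0.000159). Of 6 other secreted modulators, 2 rose and 2 fell with overexpression and 1 rose and 1 fell with knockdown. Igfbp4 fell in both, by 0.85 and 0.47, and was 116 RPKM with empty vector and 257 with the scrambled hairpin.

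Of 17 genes described as direct canonical targets in many cell types, 11 rose and 3 fell with overexpression and 8 rose and 5 fell with knockdown, with medians of 0.33 and 0.25 against 0.04 and -0.04 over all genes. The shares over all genes were again 31% and 20.3% with overexpression and 18.7% and 31% with knockdown. Under TPM 9 of the 17 rose and 3 fell with overexpression, and the knockdown counts were 8 and 5. Cd44, a surface glycoprotein, rose from 2.45 to 9.25 RPKM with overexpression (log2 fold change 1.57, limma adjusted p = 6.75e-10), and Ccn4 from 2.63 to 6.56 (1.06, adjusted p = 3.8e-08). Myc rose in both comparisons, from 20.6 to 35.3 RPKM with overexpression and from 26.0 to 35.7 with knockdown. Ccnd1, a cell cycle cyclin, rose with knockdown from 3.92 to 11.3 RPKM (1.31, adjusted p = 2.01e-07), near its 10.7 with empty vector. Fosl1 was 2.04 RPKM with empty vector and 77.6 with the scrambled hairpin. These genes have many other known inputs.

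Exons of some Wnt pathway genes overlap a gene on the other strand, and strand use in counting is not given in the sources used here. The overlap covers 17.8% of Fzd5 exon length, 16.1% of Sfrp2, 14.6% of Ctnnb1 and 13.8% of Lef1, and under 5% of Tcf7l1 and Wnt5a. The partner of Ctnnb1, Ulk4, averaged 0.313 RPKM over all libraries, against 54.5 for Ctnnb1. That of Lef1 averaged 0.278 against 2.90, and that of Fzd5 0.00676 against 3.66. No level was available for that of Sfrp2. Within the shared exons, reads of a partner cannot be told apart from those of the pathway gene.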

How the data were processed

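RNA-seq was measured in 12 libraries. The submitters' processing notes name HISAT2 2.1.0, Subread 1.5.3, featureCounts and mm10. The deposited values are RPKM per gene; against reads per exon length they were 1000 times too small, so they were multiplied by 1000. Whole reads (within 0.05 of a read) were recovered for 98.8% to 98.9% of values. Of 28948 genes, 28896 matched GENCODE M21. Log2(RPKM + 1) was fitted with limma 3.58.1 (R 4.3.3) over all 4 groups, for genes at 1 RPKM or more in 3 libraries. Members and lists were chosen with earlier results of these data known. The naming rule gave every tested gene its group means or library values, named others from a group mean of 0.05 RPKM, and took up to 3 genes per list and comparison by smallest adjusted p, of which the text prints most. Proteins were not used here. Alternatives changed the pseudocount, filter, scaling, libraries, replicate block or test (voom on recovered reads). The voom filter of 10 reads and the GC box marking were chosen after seeing the data. Same-numbered libraries did not deviate together, so numbers were not used as pairs.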

Additional observations from a re-analysis of the deposited data

How the results depend on the processing

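No count of genes or of Wnt pathway genes called, both directions summed, moved by more than 1.5 times under the alternatives run, but the count higher with knockdown, 5, became 2 under TPM, 3 without a filter, 8 under median-ratio scaling and 2 without the third scrambled library. Leaving out 1 library at a time, the Wnt pathway genes called numbered 12 to 14 with overexpression, 8 (without the third scrambled library) to 13 with knockdown, 14 to 16 between the controls and 12 to 14 for the response difference. Under TPM, the log2 fold change of Wls with overexpression became -0.00867 and that of Wnt5a between the controls 0.0669. Under median-ratio scaling, Fzd2 with knockdown became 0.0179, Fzd4 and Lrp6 between the controls -0.00844 and -0.0950, and the response difference of Ctnnb1 -0.0586. Under quantile normalization the same values of Fzd2, Fzd4 and Lrp6 were 0.0203, -0.0112 and -0.0879. Leaving out 1 library turned Fzd2 with knockdown (range -0.0878 to 0.0395), Wnt5a between the controls (-0.0108 to 0.00393), Lrp6 between the controls (-0.0158 to 0.0217) and the Tcf7l1 response difference (-0.0180 to 0.248), the last without the third overexpression library. None of these reversed values was of a called difference in the report, and the cause was not tested. Between the controls, Fzd5 and Fzd8 were each lost under several alternatives, among them adjusted p = 0.439 for Fzd5 under TPM and 0.442 for Fzd8 under median-ratio scaling. With the replicate number as a block (replicate block), 12, 10, 16 and 13 Wnt pathway genes were called in the same order. The block lost Fzd5 and Sfrp5 with knockdown (adjusted p = 0.052 and 0.0546), the Sfrp5 response difference (0.0536) and Fzd5 between the controls (0.0526), called Fzd4 there (0.0378), and changed no other call. Same-numbered libraries correlated at -0.01, 0.12 and 0.08 with overexpression and -0.07, 0.05 and -0.06 with knockdown. Depth limits what can be said of Axin2, Notum, Nkd1, Nkd2 and the other genes near 0.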
